A study of Saccharomyces cerevisiae with 2 samples.

Results

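The 9 genes measured here are regulators of the Ras, protein kinase A and Msn pathway of *Saccharomyces cerevisiae*: *RAS1*, *RAS2*, *CYR1*, *TPK2*, *TPK3*, *BCY1*, *RIM15*, *MSN2* and *MSN4*. They were chosen by name, as the listed genes to which the array annotation gives a probe set, a group of short probes for 1 transcript. All 9 were found, among 5656 genes named by the array. *CYR1* has 9 probe sets and each of the other 8 genes has 1, which makes 17 in all. The study asked how yeast responds to the loss of *SDH3*, the gene of one of the subunits that anchor succinate dehydrogenase in the inner mitochondrial membrane. The *sdh3*Δ strain was made from CENPK 113-5D, whose genotype is given as Mat a MAL2-8C SUC2 URA3-52, and in it *SDH3* was removed by allele replacement, selected with *URA3* from *Kluyveromyces lactis*, and its medium was supplemented with uracil because of its auxotrophy. The cells grew aerobically in batch on minimal medium and were sampled with 20 g/liter of glucose left, and 2 *sdh3*Δ arrays were deposited. The reference arrays are 3 in number and come from an earlier, separate study of the reference strain, the name that the methods also give to CENPK 113-5D, so a difference of strain cannot be told apart from one of study or array batch. The medium and the glucose level of those cultures are not given in the sources used here.

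In budding yeast, the small GTPases Ras1 and Ras2 switch on adenylate cyclase, Cyr1, when glucose is plentiful. The cyclic AMP that Cyr1 makes releases the catalytic subunits of protein kinase A, which the Tpk genes encode, from the inhibitory subunit Bcy1. Active protein kinase A promotes growth and holds back Rim15, a kinase of the entry into stationary phase, and the zinc finger factors Msn2 and Msn4, which turn on stress genes. Most of this control acts on the proteins, by nucleotide binding, phosphorylation and movement in and out of the nucleus. An array reads transcript levels only.

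Intensities are linear values per probe set, as the authors computed them, and values of different probe sets are not set against each other. Both *sdh3*Δ arrays gave values for all 9 members. For 4 of them, *RAS1*, *TPK3*, *RIM15* and *MSN4*, reference values were held here as well. The other 5 members lay outside the 1996 rows held of 6679 in the table of reference values. Those rows are the ones with the smallest p-values in the table, and in all 1996 of them the *sdh3*Δ and reference values do not overlap. A lack of overlap in a member is thus a property of how the rows were held, and 88.2% of them were lower in *sdh3*Δ. A value is called above background here where it exceeds a limit, the brightest of 19 control probe sets for bacterial and mouse genes. Whether transcripts of these genes were added to the samples is not given in the sources used here. That limit was 54.8 on *sdh3*Δ array 1 and 92.1 on array 2. The higher of these limits was applied to the reference arrays, whose own background was not used here. *SDH3* itself had intensities of 22.0 and 29.3 in *sdh3*Δ and of 528, 558 and 552 in the reference arrays.

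Of the 4 members with reference values, *TPK3* alone passed the test, and it was lower in *sdh3*Δ, with a log2 difference of -2.004 on the values as given. Neither *sdh3*Δ value of *TPK3* was above background, and with values raised to background the log2 difference was -0.99 and the call was lost (limma, adjusted p = 0.321). The others, *RIM15*, *MSN4* and *RAS1*, had log2 differences of -1.07, -0.59 and -0.43 and did not pass. The test was limma's moderated test on log2 intensities, with Benjamini-Hochberg adjustment over all 6679 rows. Among the rows held, 34.1% were called lower and 2.40% higher in *sdh3*Δ, so a count of 1 in 4 is no more than the share among them. Those rows were held for their small p-values and do not stand for the whole table. At an unadjusted p under 0.05 by limma, 2 of the 4, *TPK3* and *RIM15*, were lower, against 55.6% of the rows held. The median log2 difference was -0.83 over these 4 members, against -1.004 over all rows held. Of all 6679 rows, 10.9% were called in either direction, a lower bound, since rows not held count there as not called.

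**Figure D1:**
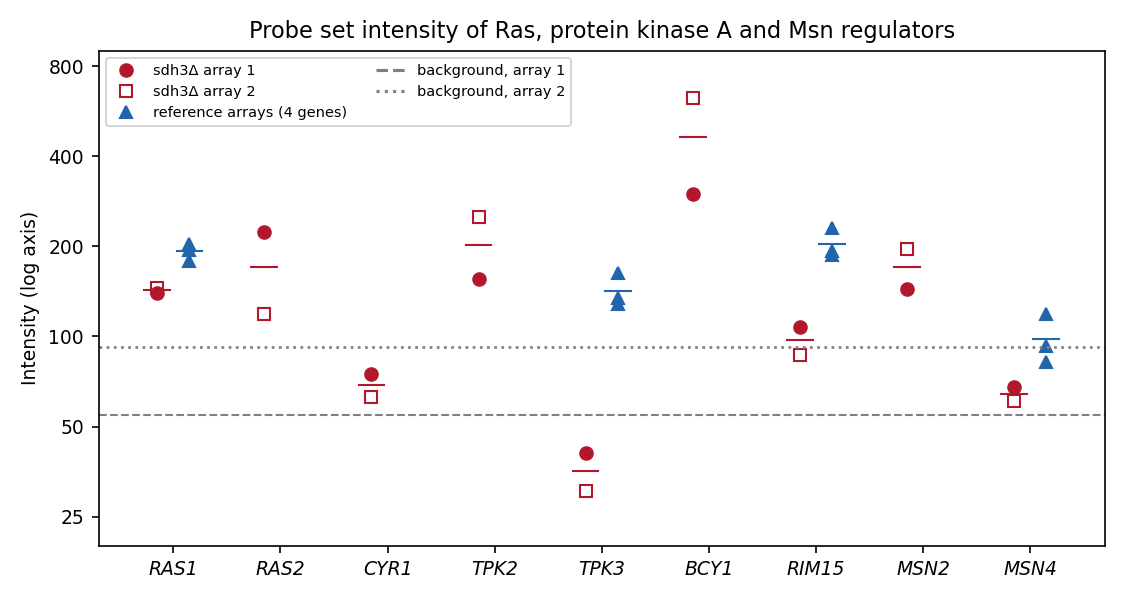
Intensity (log axis) of each regulator on the 2 *sdh3*Δ arrays (circles and squares, left) and, for 4 genes, on the 3 reference arrays (triangles, right), with short lines at the group means and horizontal lines at the background of each *sdh3*Δ array. *CYR1* is drawn from probe set 11016_at. The *TPK3* values of 40.7 and 30.5 in *sdh3*Δ lie below both background lines, and its reference values of 129 to 163 lie above them.

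The Ras GTPases were both detected in *sdh3*Δ. *RAS1* (YOR101W) had intensities of 140 and 145 in *sdh3*Δ and of 203, 179 and 195 in the reference arrays. Both mutant values lay below the lowest reference value, and both were above background. The means were 143 ± 3.36 (SD, n = 2) in *sdh3*Δ and 192 ± 12.5 (SD, n = 3) in the reference. The log2 difference was -0.43 with a 95% interval of -1.34 to 0.48 (limma, adjusted p = 1). That interval is wide because the test gives every gene 1 standard error, 0.46, and the closeness of the *RAS1* replicates does not enter it. An exact permutation test over arrays, two-sided on the absolute difference of mean log2 values, gave p = 0.1 for *RAS1*, the smallest value that 2 arrays against 3 can give. No row held has overlapping groups, so the choice of rows keeps this p at or near its floor. It therefore lends no support to a difference, here or for the genes below. *RAS2* (YNL098C), the partner with which *RAS1* shares its essential function, had 223 on array 1 and 119 on array 2. These replicates differed by 1.87-fold, where those of *RAS1* differed by 1.03-fold. No reference value was used for *RAS2*, so its level is described for *sdh3*Δ only, at 171 ± 73.1 (SD, n = 2).

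*CYR1* (YJL005W), the gene of adenylate cyclase, is a long gene that the array annotation covers with 9 probe sets. None of them was above background on both arrays, 3 were above it on array 1 alone and 6 on neither. Of the 9324 probe sets with positive values, only 33.8% were above background on both arrays. On array 1 the lowest, median and highest of the 9 were 21.6, 42.9 and 108, and on array 2 they were 18.6, 41.2 and 82.1. Probe set 11016_at gave 75.0 and 62.5, and 3066_at, the other whose name has no suffix letter, gave 21.6 and 18.6. The other 7 carry a suffix letter, among them 3072_s_at, which gave 108 and 81.5. Whether the probes of these 7 also bind other transcripts was not tested. Between the arrays the probe sets moved little, with log2 ratios of array 2 over array 1 from -0.41 to 0.38, of which 4 were above 0 and 5 below. No reference value was used for *CYR1*.

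**Figure D2:**
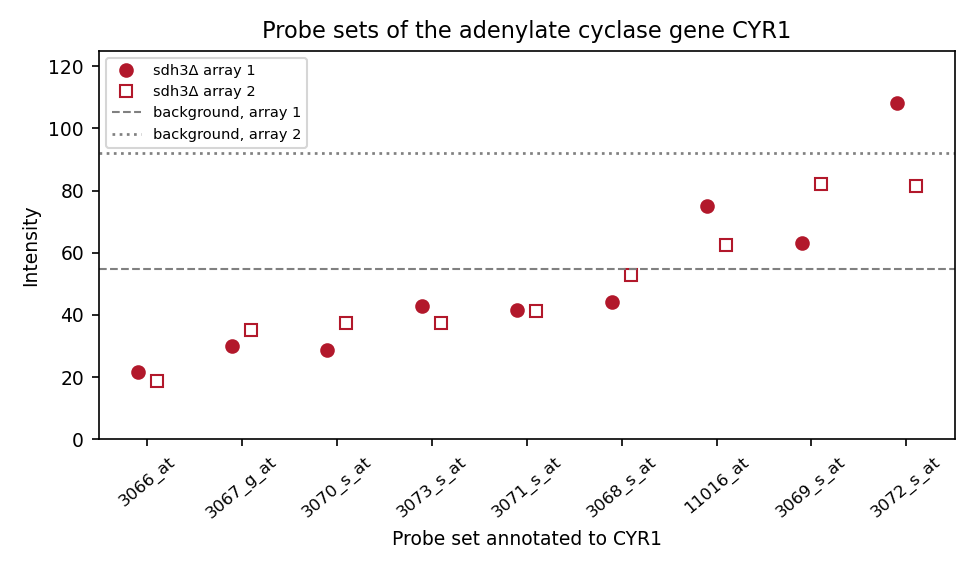
Intensity (linear axis) of the 9 probe sets annotated to *CYR1* on *sdh3*Δ array 1 (filled circles) and array 2 (open squares), ordered by their mean, with the background of each array as a horizontal line. On array 2 all 9 lie below the background of 92.1, and on array 1 only 3 exceed the background of 54.8.

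Of the subunit genes of protein kinase A, *TPK3* had reference values and *TPK2* and *BCY1* had mutant values only. *TPK3* (YKL166C), a catalytic subunit gene, had intensities of 40.7 and 30.5 in *sdh3*Δ and of 135, 163 and 129 in the reference arrays. Neither mutant value was above background, and all reference values were. The means were 35.6 ± 7.19 (SD, n = 2) in *sdh3*Δ and 142 ± 18.2 (SD, n = 3) in the reference. The log2 difference was -2.004 with a 95% interval of -2.91 to -1.10 (limma, adjusted p = 0.000456). The *sdh3*Δ values of *TPK3* only bound its level. With values raised to the background of each array, the estimate was 1.99-fold lower in *sdh3*Δ and did not pass the test (limma, adjusted p = 0.321). The call was also lost without *sdh3*Δ replicate 2, where the log2 difference was -1.80 (limma, adjusted p = 0.0825). The exact permutation test gave *TPK3* p = 0.1, the floor near which the choice of rows keeps it.

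*TPK2* (YPL203W), the catalytic subunit gene known for promoting filamentous growth, had 155 on array 1 and 250.1 on array 2 of *sdh3*Δ, both above background. Its replicates differed by 1.61-fold. *BCY1* (YIL033C), the gene of the inhibitory subunit, had 299 on array 1 and 626 on array 2, a 2.09-fold difference and the widest among the probe sets of the 9 members. Both values were well apart from the background, but the mean of 462 ± 231 (SD, n = 2) carries a wide error. Reference values were used for neither gene.

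Of the genes for targets that protein kinase A holds back, *RIM15* and *MSN4* had lower values in *sdh3*Δ than in the reference, and neither passed the test. *RIM15* (YFL033C), the kinase gene, had 107 and 86.7 in *sdh3*Δ and 187, 231 and 193 in the reference arrays. The highest *sdh3*Δ value was well under the lowest reference value, and 1 of the 2 *sdh3*Δ values was above background. The means were 96.9 ± 14.4 (SD, n = 2) in *sdh3*Δ and 204 ± 23.7 (SD, n = 3) in the reference. The log2 difference was -1.07 with a 95% interval of -1.98 to -0.17 (limma, adjusted p = 0.138). That interval leaves out 0, yet the smallest difference that passed after adjustment was 1.29 on the log2 scale. Holding rows for their small p-values also favours differences away from 0. This interval therefore lends no support to a difference in *RIM15*. The exact permutation p for *RIM15* was 0.1, again the floor near which the choice of rows keeps it.

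*MSN4* (YKL062W), one of the pair of stress factor genes, had 67.7 and 61.0 in *sdh3*Δ and 118, 82.0 and 93.2 in the reference arrays. The gap between the groups, 67.7 to 82.0, was narrower than the spread of the reference values themselves. Of the *sdh3*Δ values 1 was above background, and of the reference values 2. The means were 64.3 ± 4.76 (SD, n = 2) in *sdh3*Δ and 97.9 ± 18.7 (SD, n = 3) in the reference. The log2 difference was -0.59 with a 95% interval of -1.50 to 0.32 (limma, adjusted p = 0.802; exact permutation p = 0.2). *MSN2* (YMR037C), its partner, had 144 on array 1 and 196 on array 2 of *sdh3*Δ, both above background. Its mean was 170 ± 36.5 (SD, n = 2), and no reference value was used for it.

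**Figure D3:**
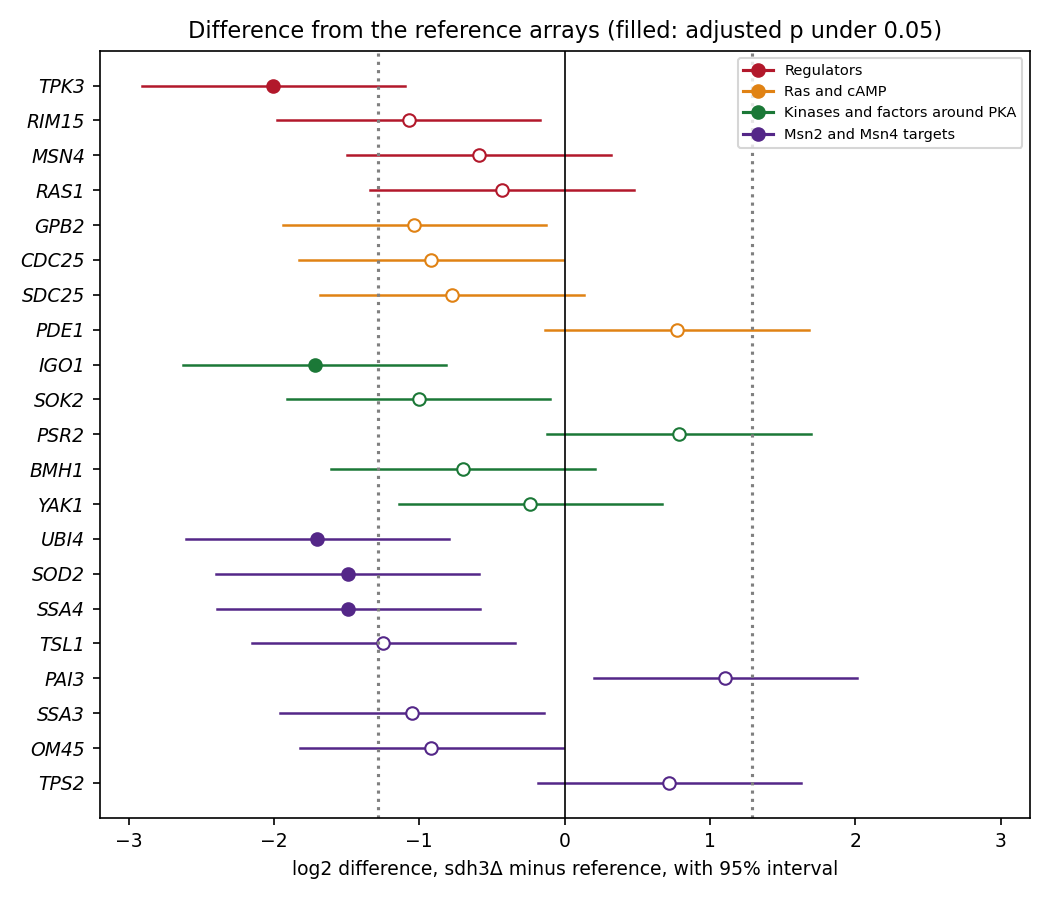
Log2 difference of *sdh3*Δ minus reference (x axis) with its 95% interval for the 4 regulators with reference values and for the genes of 3 related lists that were among the rows held. Filled points passed an adjusted p of 0.05, and dotted lines mark a difference of 1.29 in size. *TPK3*, *IGO1*, *UBI4*, *SOD2* and *SSA4* passed, all of them lower in *sdh3*Δ.

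Genes that set Ras activity and cyclic AMP levels did not pass the test in either direction. Of 18 such genes, 4 were among the rows held, with 0 called lower and 0 higher by limma, against 34.1% and 2.40% of all rows held. At an unadjusted p under 0.05, limma gave 2 of them, *GPB2* and *CDC25*, both lower, and no other test that was run called any after adjustment. *CDC25*, the gene of the exchange factor that loads Ras with GTP, had 61.4 and 46.4 in *sdh3*Δ and 96.1, 134 and 80.1 in the reference arrays. *GPB2*, which encodes a kelch repeat protein acting with the G protein alpha subunit Gpa2, had 61.5 and 40.9 in *sdh3*Δ and 119, 102 and 89.8 in the reference arrays. In each of these genes 1 of the 2 *sdh3*Δ and 2 of the 3 reference values were above background. The log2 difference was -0.92 for *CDC25* and -1.03 for *GPB2* on the values as given, and -0.49 and -0.46 with values raised to background. *SDC25*, a related exchange factor gene, was not above background on any array. *PDE1*, which encodes a phosphodiesterase that breaks down cyclic AMP, had 169 and 155 in *sdh3*Δ and 91.2, 118 and 79.0 in the reference arrays, a log2 difference of 0.77 (limma, adjusted p = 0.447).

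Among kinases and factors around protein kinase A, 5 of 13 genes were held, with 1 called lower and 0 higher, against 34.1% and 2.40% of all rows held. *IGO1*, which encodes a phosphoprotein that Rim15 acts on when cells enter quiescence, had 223 and 150.3 in *sdh3*Δ and 609, 603 and 596 in the reference arrays. Every value was above background, and the log2 difference was -1.72 (limma, adjusted p = 0.00384). Without *sdh3*Δ replicate 2 the list had 0 calls. *SOK2*, a transcription factor gene of the pathway, *PSR2*, a membrane phosphatase gene, and *BMH1*, a 14-3-3 gene with a close paralog that may bind its probes, did not pass. *SOK2* was above background on neither *sdh3*Δ array, and its log2 difference of -1.004 was -0.50 with values raised to background. *PSR2* was above background on 1 *sdh3*Δ array and no reference array, and its log2 difference of 0.79 turned to -0.082 with values raised to background. *BMH1*, above background on all arrays, had a log2 difference of -0.70.

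Of 35 genes known as targets of Msn2 and Msn4, 8 were held, with 3 called lower and 0 higher, against 34.1% and 2.40% of all rows held. A count of 3 in 8 is near that share. The 8 had a median log2 difference of -1.15, against -1.004 over all rows held. Of the 8, 6 were lower and 2 higher in *sdh3*Δ, where 88.2% of all rows held were lower. *SOD2*, the mitochondrial manganese superoxide dismutase gene, had 163 and 240.3 in *sdh3*Δ and 598, 501 and 577 in the reference arrays, all above background (log2 difference -1.49; limma, adjusted p = 0.0153). *SSA4*, a stress-induced Hsp70 gene, and *UBI4*, the polyubiquitin gene, were the other genes called, with log2 differences of -1.49 and -1.70 (limma, adjusted p = 0.0158 and 0.00436), and both share sequence with other genes whose transcripts may bind their probes. In *SSA4* 1 of the 2 *sdh3*Δ values was above background, and its call was lost with values raised to background (limma, adjusted p = 0.0899). *TSL1*, of the trehalose synthase complex, did not pass at -1.25 (limma, adjusted p = 0.0612). Leaving out *sdh3*Δ replicate 2 left 0 of the list called lower, and leaving out *sdh3*Δ replicate 1 or reference replicate 1 left 1.

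Between the *sdh3*Δ arrays, the members moved in both directions, as did the probe sets at large. Taking 11016_at for *CYR1*, 4 of the 9 members were higher on array 2 and 5 were lower. *BCY1* had a log2 ratio of array 2 over array 1 of 1.07, which lay above that of 97.0% of the 9324 probe sets with positive values. *TPK2* had 0.69, *MSN2* 0.44 and *RAS1* 0.05. *RAS2* had -0.90, with 12.6% of probe sets below it. *TPK3*, *RIM15*, *CYR1* and *MSN4* had -0.42, -0.30, -0.26 and -0.15. Only *BCY1* differed by more than 2-fold, as did 14.1% of all probe sets, whose log2 ratio had an SD of 0.71. Among the 3153 probe sets above background on both arrays, *BCY1* stood above 92.9%. The 19 background probe sets were all higher on array 2, by a median of 0.67 on the log2 scale, and their part in these ratios was not tested. Whether the 2 samples came from different cultures is not given in the sources used here, so p-values measure only the spread between these arrays, which may be technical.

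**Figure D4:**
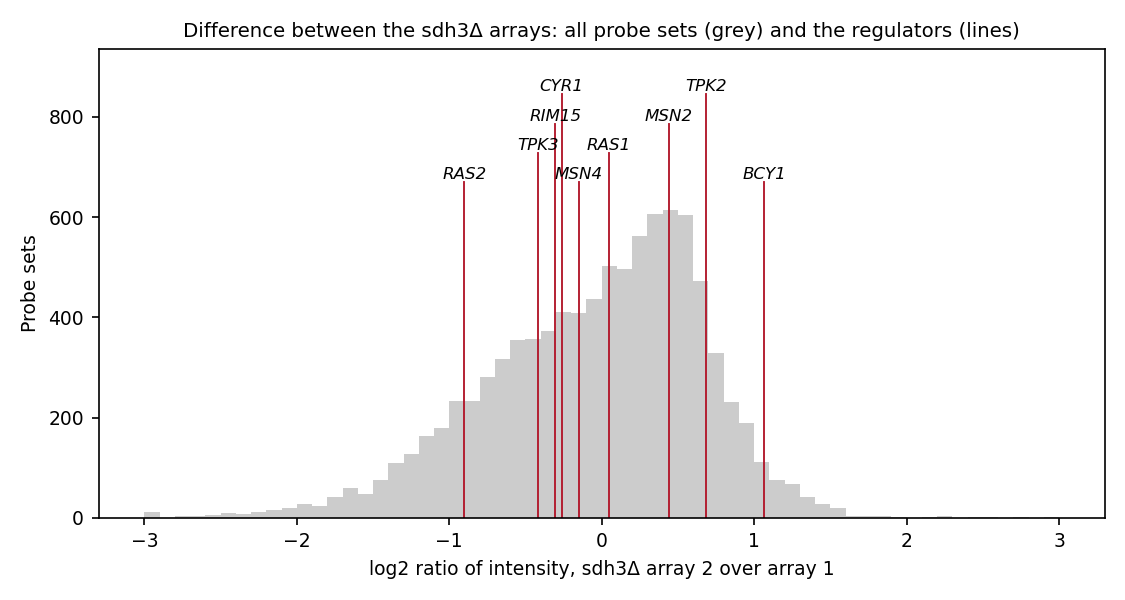
Histogram of the log2 ratio of intensity on *sdh3*Δ array 2 over array 1 (x axis) across 9324 probe sets (y axis, number of probe sets, with ratios beyond 3 in size drawn in the end bins), with a line for each regulator and *CYR1* drawn from 11016_at. *BCY1* at 1.07 and *RAS2* at -0.90 are the outermost lines.

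The results were recomputed under 12 alternative settings, of which 4 change only the test or its adjustment and leave the log2 difference as it was. Since the values of both groups do not overlap in any row held, most of the others could not turn its sign. The log2 difference of *TPK3* ran from -2.21 to -0.99, and it was called under 8 of the 12. That of *RIM15* ran from -1.23 to -0.57, with adjusted p from 0.0969 to 1, and it was never called. *MSN4* ran from -0.71 to -0.090 and *RAS1* from -0.48 to 0.070, and neither was called under any setting. The sign of *RAS1* turned only when all *sdh3*Δ values were raised by 0.5 on the log2 scale.

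**Figure D5:**
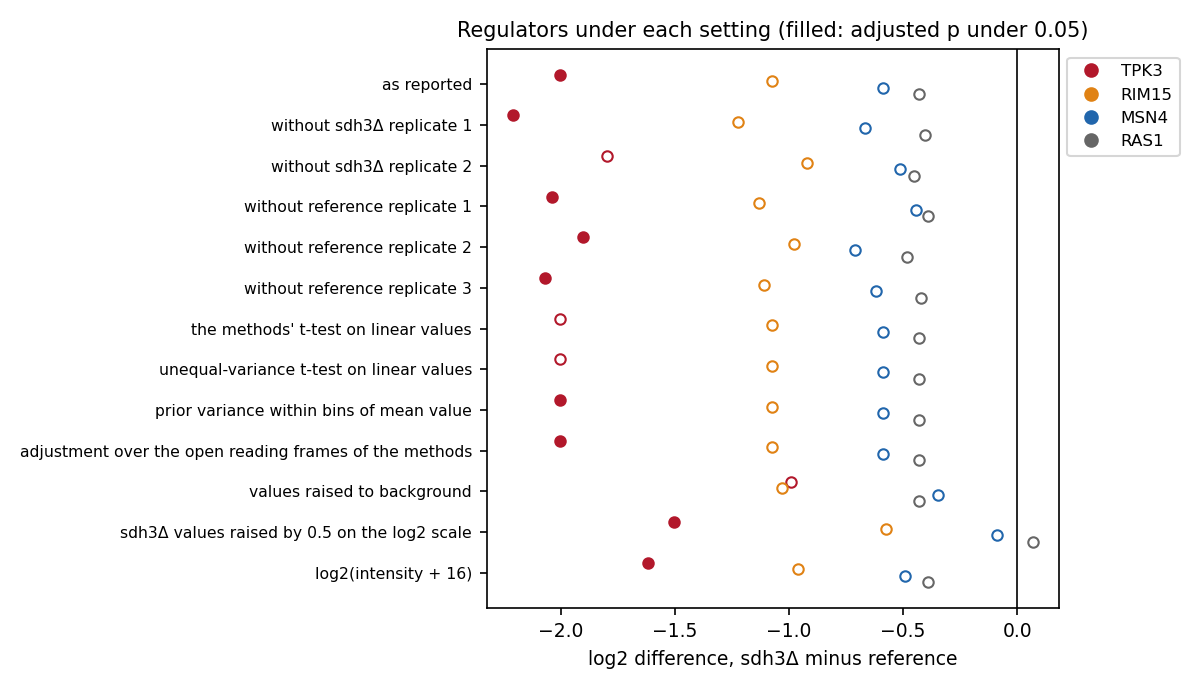
Log2 difference of *sdh3*Δ minus reference (x axis) for 4 regulators as reported and under 12 alternative settings (rows), with filled points where the adjusted p was under 0.05. For the tests run on linear values the point shows the log2 difference. *TPK3* is open without *sdh3*Δ replicate 2, in both tests on linear values and with values raised to background, and the other 3 genes are open in every row.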

How the data were processed

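The authors hybridized RNA of 2 *sdh3*Δ samples to Affymetrix Yeast Genome S98 arrays and deposited 1 intensity per probe set. Their methods give global scaling in Microarray Suite (MAS5), version 5, and then expression levels from dChip and its Perfect Match model. The sample records name MAS5, version 5, as the processing tool. Which program gave the deposited values is not settled here. The file holds 9335 probe sets, and 6504 have 1 gene in the array annotation. Locus names came from the R64 gene table, and no coordinates were used. Reference intensities came from the additional data table of the study, sorted by p-value and held here for 1996 of 6679 rows. Its *sdh3*Δ values equal the deposited ones in all 4 members held, and those of a deposited probe set in 1968 of the 1996 rows held. Its fold changes and p-values were not used.

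The test was that of limma 3.58.1 (R 4.3.3), two-sided, on log2 intensity. Its prior variance, 0.256, came from the pair of deposited arrays, since the rows held were chosen by p-value. The prior degrees of freedom were infinite, so the replicate spread of a single gene carried no weight. Rows not held entered the Benjamini-Hochberg adjustment at a p-value of 1, which makes adjusted p-values upper bounds. The threshold was 0.05. The code of the fit was run on simulated data with the same variance for every row and no difference of batch. That run cannot show how the fit performs where either fails to hold. In 10 bins of mean value, from low to high, the prior variance ran from 0.118 in bin 2 to 0.425 in bin 9. A single variance is thus an approximation, and it is below that of the brightest bins.

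The number of arrays limits the precision. Python 3.11.15, numpy 2.4.6, pandas 2.3.3 and matplotlib 3.10.9 were used. Members and lists were chosen with earlier results of these data known. Named were all members, *SDH3* and, of each list, up to 4 genes with the smallest adjusted p. One item of a planned list is not reported here.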

Additional observations from a re-analysis of the deposited data

How the results depend on the processing

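Of the 4 members with reference values, 1 was called lower and 0 higher. Leaving out 1 array at a time gave 0 to 1 called lower. With the methods' t-test, its unequal-variance form or values raised to background, 0 were called lower, and the adjusted p of *TPK3* was 0.0700, 0.143 and 0.321. By raising *sdh3*Δ values by 0.5 on the log2 scale *RAS1* turned to a log2 difference of 0.070. Among the kinases and factors around protein kinase A, leaving out 1 array gave 0 to 1 called lower, and the unequal-variance t-test and the raised *sdh3*Δ values gave 0. For the Msn2 and Msn4 targets, leaving out 1 array gave 0 to 3 called lower, prior variances within 10 bins gave 1, and both t-tests and the raised *sdh3*Δ values gave 0. In that list 1 gene was called higher with binned prior variances and 1 with the raised *sdh3*Δ values. Over all rows held, 681 were lower and 48 higher, against 254 and 98 with the raised *sdh3*Δ values, 336 and 25 with values raised to background, 121 and 9 without *sdh3*Δ replicate 2, 98 and 33 by the methods' t-test and 0 by its unequal-variance form. Without *sdh3*Δ replicate 1, 528 were lower and 16 higher. The cause of these changes was not tested. Quantile normalization moved the log2 ratio of none of the 17 probe sets of the members between the *sdh3*Δ arrays by more than the spread between replicates.

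No paired analysis was possible because the reference arrays are not samples of this series and share no labelled replicate numbers with the *sdh3*Δ arrays. The planned promoter and protein comparisons were not run, since no sequence was used here.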
